A study of Rattus norvegicus with 24 samples.

Results

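A set of 11 arrays of rat forebrain RNA was set in order of D-serine dose, 4 from vehicle rats (0 mg/kg, labelled control), 4 from rats given 200 mg/kg and 3 from rats given 500 mg/kg. They are 11 of the 24 arrays of the study, chosen by their titled dose as groups alike in the 3′ to 5′ ratio of beta-actin, described below. One 500 mg/kg array, replicate 4 (animal 251), was left out by the rule that defines the set. All rats were male F344, an inbred strain, aged 11 to 12 weeks. Each received a single treatment and was killed 96 h later, and a piece of about 30 mg of forebrain gave the RNA of 1 Affymetrix array. The labels name a separate animal for every array and no allele, transgene or second agent. They do not name the vehicle or say from which forebrain regions the pieces were cut. The question the 11 arrays address is whether transcript levels 96 h after the 2 largest doses changed in a graded way with dose.

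D-serine is an amino acid that binds the co-agonist site of the NMDA receptor, a glutamate-gated ion channel whose opening admits calcium and drives activity-regulated transcription. In brain it is made from L-serine by serine racemase (Srr), degraded by D-amino acid oxidase (Dao), and moved across membranes by the neutral amino acid transporters Slc1a4 and Slc7a10. L-serine itself is made in astrocytes by a pathway that begins with Phgdh.

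Levels are given as log2(intensity + 16) after quantile normalization of the 11 arrays, so 1 unit is a doubling for bright probe sets and more than that for dim ones. The slope is the change in this level per step of dose rank, with vehicle at 0, 200 mg/kg at 1 and 500 mg/kg at 2. It was fitted with limma over 18625 probe sets, which represent 10229 named genes, each by its brightest probe set. A probe set or gene passes where its Benjamini-Hochberg adjusted p is under 0.05.

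Array quality was checked on 3 measures. Median correlations of an array with the other 10 were 0.966 to 0.976, and median deposited intensities were 56 to 82.9. The 3′ signal of the beta-actin control over its 5′ signal, on the log2 scale, a measure that grows as RNA is degraded, was 2.34 to 2.75 on the vehicle arrays, 2.26 to 2.68 at 200 mg/kg and 2.29 to 2.62 at 500 mg/kg. Its slope was -0.056 per dose rank (exact two-sided permutation test over all 11550 allocations, p = 0.395, adjusted p = 0.687 over 3 ratios). The set was defined as groups alike in this ratio, so the result was set by the choice of groups and is a description only. The Gapdh ratio was lower on 200 mg/kg replicates 3 and 4 (0.46 and 0.36) than on the other 9 arrays (0.68 to 0.89), with a mean of 0.59 over that group against 0.81 for vehicle and 0.73 for 500 mg/kg. Its slope had an exact permutation p of 0.458 (adjusted p = 0.687), a test that does not bear on a lower middle group. Markers of brain regions and choroid plexus differed between single arrays. Vehicle replicate 2 stood high in thalamic markers. Choroid plexus markers were high on vehicle replicate 2 and on 200 mg/kg replicates 1 and 4. Striatal markers were highest on vehicle replicate 4, at a mean level of 9.46 against 7.32 on 200 mg/kg replicate 3.

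No gene rose or fell with dose rank at an adjusted p under 0.05 (0 of 18625 probe sets, 0%). The smallest adjusted p was 0.422. At an unadjusted p under 0.05, limma called 1139 probe sets (6.12%), 536 with a positive and 603 with a negative slope, where an even spread of p values would give 931. Among genes, 269 read higher with dose (2.63%) and 311 lower (3.04%), and the median slope of all genes was 0.0026. The median standard error of a slope was 0.066. Both doses lay on the slope's side of vehicle for 1116 of the 1139 (98.0%), and 955 (83.8%) were also in dose order. Over all tested probe sets the shares were 72.2% and 37.0%. The slope was fitted on the arrays that give these signs, so the agreement is not independent of it.

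**Figure D1:**
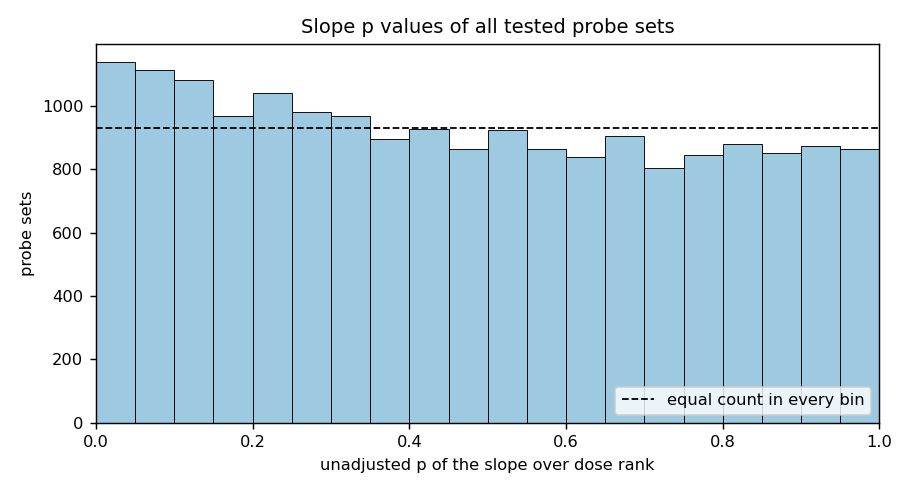
Number of probe sets (vertical axis) by unadjusted p of the slope over dose rank in bins of 0.05 (horizontal axis), for the 18625 probe sets tested. The lowest bin holds 1139 probe sets against 931 in each bin if p values were spread evenly (dashed line), and the bins up to 0.3 all lie above that line.

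The genes with the smallest p values among those that read lower were led by Gfap, the intermediate filament protein of astrocytes, which is a marker of reactive astrocytes. Gfap levels were 10.11, 10.90, 10.27 and 10.52 on the vehicle arrays, 9.70, 9.67, 9.36 and 10.16 at 200 mg/kg, and 9.56, 9.18 and 9.55 at 500 mg/kg. All 500 mg/kg arrays lay below all vehicle arrays, and only 200 mg/kg replicate 4 reached into the vehicle range. The slope was -0.52 ± 0.098 (SE; 95% interval -0.73 to -0.31; unadjusted p = 8.23e-05, adjusted p = 0.422 in limma), and the mean at 500 mg/kg was 2.03-fold below vehicle. Leaving out single arrays gave Gfap slopes from -0.57 to -0.44, the latter without vehicle replicate 2. Gfap did not pass under any of these.

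Kif1a, a kinesin that carries synaptic vesicle precursors along axons, read 8.24, 8.10, 7.63 and 7.82 in vehicle, 7.42, 7.59, 7.39 and 7.11 at 200 mg/kg, and 7.14, 7.34 and 7.17 at 500 mg/kg. Every dosed array lay below every vehicle array, and the slope was -0.38 ± 0.078 (adjusted p = 0.449). A second Kif1a probe set had a slope of 0.0048 ± 0.072, so the difference is that of 1 probe set. Herc1, a large HECT-domain ubiquitin ligase, read 8.80 to 8.85 in vehicle, 8.47 to 8.73 at 200 mg/kg and 8.35 to 8.48 at 500 mg/kg. Every dosed array was again below every vehicle array, while the 200 and 500 mg/kg arrays overlapped, at a slope of -0.20 ± 0.039 (adjusted p = 0.422).

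Vascular genes were among the 12. Slco1a4, an organic anion transporter of the blood-brain barrier, read 9.86, 9.45, 9.34 and 9.33 in vehicle, 9.24, 9.32, 9.03 and 9.20 at 200 mg/kg, and 9.03, 8.89 and 9.06 at 500 mg/kg. All dosed arrays were below the vehicle arrays, by a narrow margin for 200 mg/kg replicate 2. The slope was -0.25 ± 0.058 (adjusted p = 0.536), and the gene's other probe set gave -0.18 ± 0.058. Tm4sf1, a membrane protein of endothelial cells, had a slope of -0.25 ± 0.054, and Elk3, an ETS-family transcription factor of the vasculature, one of -0.27 ± 0.065. Both were below vehicle on every dosed array, and a second Elk3 probe set had a slope of -0.11 ± 0.059. Serpinh1, the collagen chaperone of the endoplasmic reticulum, read 7.62 to 7.98 in vehicle, 7.26 to 7.68 at 200 mg/kg and 6.92 to 7.35 at 500 mg/kg (slope -0.29 ± 0.066). Ifitm3, an interferon-induced membrane protein, had a slope of -0.31 ± 0.068.

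The remaining genes of these 12 were Prlh (prolactin-releasing hormone, slope -0.33 ± 0.065), Map7d2 (a microtubule-associated protein, -0.23 ± 0.046), Arhgap5 (a GTPase-activating protein, -0.23 ± 0.045) and Ranbp3 (a cofactor of nuclear export, -0.16 ± 0.038). A second Map7d2 probe set had a slope of only -0.04 ± 0.055. Prlh was 6.67 to 7.12 in vehicle and 6.15 to 6.27 at 500 mg/kg, with the 200 mg/kg arrays at 6.50 to 6.82, overlapping vehicle. Over all 12 genes the adjusted p was 0.422 to 0.698. In 7 of the 12 (Herc1, Map7d2, Arhgap5, Kif1a, Tm4sf1, Slco1a4 and Elk3) every dosed array lay below every vehicle array, a pattern found in 72 of all genes (0.704%). The 12 were chosen by their slope p, so this count describes them and supports nothing.

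The probe set with the smallest p of all was 1 of 3 for Sptbn1, a spectrin of the membrane skeleton, named here after its values were seen. It read 9.28 to 9.62 in vehicle, 8.97 to 9.11 at 200 mg/kg and 8.93 to 8.96 at 500 mg/kg (slope -0.27 ± 0.049, adjusted p = 0.422). The brightest Sptbn1 probe set had a slope of 0.02 ± 0.024 and the third one of -0.16 ± 0.066, so the 3 did not agree. With the 5, 20 and 50 mg/kg arrays added to the model to estimate the spread, this probe set alone passed, with a slope of -0.27 (adjusted p = 0.0198).

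Genes that read higher with dose were led, by p, by Grem1, a secreted antagonist of bone morphogenetic proteins. Grem1 read 6.0, 5.46, 5.98 and 5.67 in vehicle, 6.20, 6.28, 6.14 and 5.98 at 200 mg/kg, and 6.38, 6.38 and 6.50 at 500 mg/kg. The 500 mg/kg arrays all lay above vehicle, while 200 mg/kg replicate 4 was within the vehicle range. The slope was 0.32 ± 0.074 (95% interval 0.17 to 0.48; unadjusted p = 0.000561, adjusted p = 0.536 in limma).

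The largest slope of these 12 was that of Gria4, a subunit of the AMPA-type glutamate receptor. Its levels were 7.90, 7.10, 7.03 and 7.64 in vehicle, 7.56, 7.17, 8.39 and 7.86 at 200 mg/kg, and 8.70, 7.96 and 8.48 at 500 mg/kg. The 500 mg/kg arrays were the highest, apart from 200 mg/kg replicate 3, and the 200 mg/kg arrays overlapped vehicle. The slope was 0.47 ± 0.13 (adjusted p = 0.698), but a second Gria4 probe set of like brightness had a slope of -0.12 ± 0.11. Palmd, which encodes palmdelphin, read 7.21 to 7.84 in vehicle, 7.93 to 8.37 at 200 mg/kg and 7.86 to 8.42 at 500 mg/kg (slope 0.40 ± 0.095, adjusted p = 0.672). Its 2 dimmer probe sets had slopes of 0.01 ± 0.090 and -0.01 ± 0.095.

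Neuronal genes followed. Pcdh10, a protocadherin of cell adhesion, read 6.27 to 7.07 in vehicle, 6.67 to 7.52 at 200 mg/kg and 7.32 to 7.74 at 500 mg/kg (slope 0.41 ± 0.097). Svop, a synaptic vesicle membrane protein, read 6.89, 7.23, 6.93 and 6.98 in vehicle, 7.26, 7.23, 7.70 and 7.44 at 200 mg/kg, and 7.47, 7.50 and 7.50 at 500 mg/kg (slope 0.25 ± 0.065). The highest vehicle array of Svop lay level with the lowest 200 mg/kg array, and the 500 mg/kg arrays were above both. Nbea, the neuronal scaffold neurobeachin, read 10.08 to 10.13, 10.16 to 10.22 and 10.24 to 10.41 in dose order, with a slope of 0.11 ± 0.031 (adjusted p = 0.698).

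The other 6 were Oxnad1 (an oxidoreductase-domain protein, slope 0.26 ± 0.060), Hist3h2ba (a histone H2B, 0.24 ± 0.062), Ubtd2 (a ubiquitin-domain protein, 0.21 ± 0.058), Arhgap26 (a GTPase-activating protein, 0.21 ± 0.055), Morc3 (a nuclear ATPase, 0.19 ± 0.049) and Lage3 (a subunit of a tRNA-modifying complex, 0.16 ± 0.042). A second Ubtd2 probe set had a slope of -0.03 ± 0.075. The adjusted p of the 12 ranged from 0.536 to 0.698. Every dosed array was above every vehicle array for Palmd, Hist3h2ba, Morc3, Arhgap26, Lage3 and Nbea, against 45 such genes in all (0.44%). These 12 too were chosen by p.

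**Figure D2:**
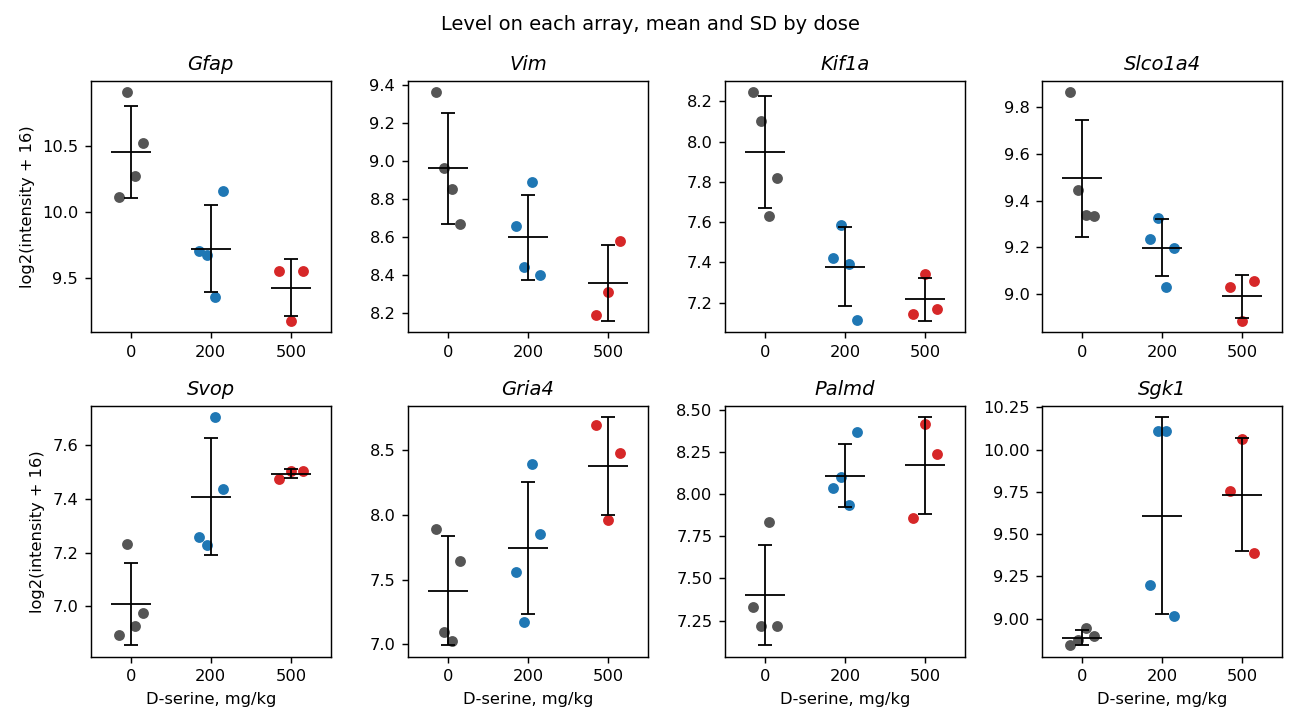
Level on each array, as log2(intensity + 16) on the vertical axes, by D-serine dose (0, 200 or 500 mg/kg) for 8 genes. Points are arrays (4, 4 and 3), horizontal bars are group means and error bars are SD. Gfap, Vim, Kif1a and Slco1a4 step down with dose, Gria4 steps up, and for Svop, Palmd and Sgk1 the means of both doses lie at like levels above vehicle.

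Against vehicle alone, 200 mg/kg gave 0 probe sets past the adjusted threshold and 1319 at an unadjusted p under 0.05 (7.08%; 684 higher and 635 lower; among genes 2.82% higher and 3.09% lower). For each of the 5 named genes with the smallest p, the difference was smaller at 500 than at 200 mg/kg. These genes were chosen by their p at 200 mg/kg, which favours larger differences at that dose, so this is not a dose pattern. Fscn1, which bundles actin filaments, read 5.63 to 6.14 in vehicle, 6.28 to 6.72 at 200 mg/kg and 6.33 to 6.52 at 500 mg/kg, with a difference at 200 mg/kg of 0.71 ± 0.14 (adjusted p = 0.552). Its second probe set above the filter moved less, with group means of 5.84, 5.97 and 5.86 in dose order. Xiap, an inhibitor of caspases, differed by -0.41 ± 0.080 at 200 and -0.36 ± 0.087 at 500 mg/kg. A second Xiap probe set went the other way, with group means of 6.09, 6.26 and 6.34 in dose order. Nav1, a microtubule-binding protein of growing axons, differed by -0.36 ± 0.079 and -0.20 ± 0.085, and C2h3orf80, for which no role is given here, by 0.62 ± 0.13 and 0.41 ± 0.15. A second Nav1 probe set was not lower, with group means of 7.44, 7.49 and 7.48 in dose order. Dhx8, a helicase of RNA splicing, read 7.0 to 7.62 in vehicle, 6.68 to 6.93 at 200 mg/kg and 7.25 to 7.37 at 500 mg/kg. Its difference of -0.58 ± 0.12 at 200 mg/kg had no counterpart at 500 mg/kg (-0.05 ± 0.13). A second Dhx8 probe set moved less, with group means of 6.80, 6.69 and 6.75 in dose order.

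Against vehicle alone, 500 mg/kg gave 0 probe sets past the adjusted threshold and 1068 at an unadjusted p under 0.05 (5.73%; 484 higher and 584 lower; among genes 2.38% higher and 2.91% lower). The 5 named genes with the smallest p were Gfap (-1.02 ± 0.19), Prlh (-0.68 ± 0.13), Herc1 (-0.40 ± 0.080), Kif1a (-0.73 ± 0.15) and Map7d2 (-0.45 ± 0.092), each with an adjusted p of 0.515. The corresponding differences at 200 mg/kg were -0.73 ± 0.18, -0.24 ± 0.12, -0.21 ± 0.074, -0.57 ± 0.14 and -0.30 ± 0.086. These genes were chosen by their p at 500 mg/kg, which favours larger differences at that dose. The doses share the 4 vehicle arrays, so these values are not independent of each other.

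Set directly against each other, which uses no vehicle array, 500 and 200 mg/kg differed for 0 probe sets at the adjusted threshold and for 510 at an unadjusted p under 0.05 (2.74%, fewer than the 931 of an even spread; among genes 1.28% higher and 1.24% lower). The smallest unadjusted p was 0.000832, for Npffr2, a receptor for neuropeptide FF. Npffr2 read 6.12, 6.22, 5.98 and 6.0 at 200 mg/kg and 6.65, 6.62 and 6.50 at 500 mg/kg, with vehicle at 6.29 to 6.58, a difference of 0.51 ± 0.12 between the doses (adjusted p = 1). Klf16, a zinc finger transcription factor, differed by 0.48 ± 0.12, Treml1, a receptor of platelets, by 0.50 ± 0.12, and Fbxo34, an F-box protein, by 0.65 ± 0.16. Slc23a2, a vitamin C transporter, differed by -0.38 ± 0.094, with 8.56 to 8.75 at 200 mg/kg and 8.24 to 8.38 at 500 mg/kg.

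Departure from a straight line was tested as the 200 mg/kg mean minus the mean of vehicle and 500 mg/kg. No probe set passed, and 763 had an unadjusted p under 0.05 (4.1%; among genes 1.5% higher and 1.9% lower). The 5 named genes with the smallest p were Dhx8 (-0.55 ± 0.11), Npffr2 (-0.45 ± 0.099), Slc23a2 (0.32 ± 0.077), Ift172, a protein of intraflagellar transport (-0.32 ± 0.081), and Ghdc (-0.46 ± 0.12). In all of them 200 mg/kg stood apart from both vehicle and 500 mg/kg, and their adjusted p was 1. They were chosen by this contrast, so their shape follows from the choice and supports nothing. Haemoglobin genes showed the same shape on 3 of the 4 arrays at 200 mg/kg. Hbb, the beta-globin chain, read 11.26 to 11.84 in vehicle, 9.44, 9.69, 9.78 and 12.21 at 200 mg/kg, and 10.28 to 11.03 at 500 mg/kg. Alas2, the first enzyme of haem synthesis in red cell precursors, read 6.33 to 6.78, then 5.11, 4.90, 5.22 and 7.09, then 5.63 to 6.04. Without 200 mg/kg replicate 4, the 200 mg/kg difference was -1.95 ± 0.17 for Hbb (adjusted p = 0.000311) and -1.54 ± 0.16 for Alas2 (adjusted p = 0.00115), and 8 probe sets passed in that comparison, the same 8 as in the departure. Of these, 7 were lower at 200 mg/kg, all of them annotated to haemoglobin genes or Alas2, and 1 probe set that is unnamed here was higher. With all 11 arrays none of these passed. The array left out was the 1 that stood apart in Hbb and Alas2 within its group. Leaving it out narrows their spread, so these adjusted p values are a description and support nothing. Fewer red cells in the sample and less RNA per cell cannot be told apart in bulk tissue, here or for any list of cell type markers.

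Lists of cell type markers were described by the slopes of their measured members, beside the 3.04% of all genes that read lower and the 2.63% that read higher at an unadjusted p under 0.05. For every list, the counts of slopes above and below 0 stand beside 5287 positive and 4942 negative slopes among all 10229 genes. No member of any list passed the adjusted threshold. The direction of a median is given only where it held under median centring and on the values as deposited, since 19 of 43 medians turned sign on another scaling. Single arrays weighed on these genes: of 119 gene values followed (slopes, and differences for 15 of them), 50, all of them slopes, fell by over 1.5 times or turned sign without the 1 array that lowered them most, which was vehicle replicate 2 for 21 and vehicle replicate 1 for 11.

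Markers of reactive astrocytes included Gfap, but no member passed after adjustment. Of 11 genes listed, 5 were measured above the filter on dim values, 4 of the 5 had a negative slope, 3 at an unadjusted p under 0.05, and the median slope was -0.21. Their mean level was 8.16 to 8.32 on the vehicle arrays, 7.89 to 8.02 at 200 mg/kg and 7.74 to 7.78 at 500 mg/kg. The 3 groups did not overlap and lay in dose order. This mean includes Gfap, which was named for its slope p, so the order is a description. Gfap is described above. Vim, the intermediate filament vimentin, read 9.36, 8.96, 8.85 and 8.67 in vehicle, 8.66, 8.44, 8.89 and 8.40 at 200 mg/kg, and 8.19, 8.31 and 8.57 at 500 mg/kg (slope -0.31 ± 0.077, adjusted p = 0.698). The 500 mg/kg arrays of Vim all lay below vehicle and the 200 mg/kg arrays overlapped it. Hspb1, a small heat shock protein, had a slope of -0.21 ± 0.088. The means of Vim and Hspb1 were also below vehicle at 5, 20 and 50 mg/kg, as given below.

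General astrocyte markers, measured by 10 genes, had no common direction, with 6 slopes above and 4 below 0. Aqp4, the water channel of astrocyte endfeet, had a slope of -0.22 ± 0.079, with 10.60 to 11.07 in vehicle, 10.20 to 10.86 at 200 mg/kg and 10.22 to 10.60 at 500 mg/kg. Its other probe sets gave -0.43 ± 0.085 (unadjusted p = 0.000139) and -0.06 ± 0.051. Glul, glutamine synthetase, had a positive slope of 0.09 ± 0.036, and Gjb6, the gap junction protein connexin 30, one of 0.11 ± 0.084.

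Endothelial markers had negative slopes for 10 of 11 measured genes, with a median of -0.12, and 4 had an unadjusted p under 0.05. Beside Slco1a4 these included Esam, an adhesion molecule of endothelial junctions (slope -0.21 ± 0.073), and Vwf, von Willebrand factor (-0.34 ± 0.14). Vwf was 8.48 on vehicle replicate 1 and 6.81 to 7.70 on the other 10 arrays, and without that array its slope was -0.18 and the median of the list -0.081, with 2 genes at an unadjusted p under 0.05. The list's mean level was 7.43 to 7.91 in vehicle, 7.27 to 7.62 at 200 mg/kg and 7.30 to 7.39 at 500 mg/kg. Among pericyte and smooth muscle markers, 5 of 7 slopes were negative, with a median of -0.041, and without vehicle replicate 1 it was 3 of 7 with a median of 0.010. Rgs5, a pericyte marker, had a slope of -0.17 ± 0.067, and Acta2 and Myh11, actin and myosin of smooth muscle, had slopes of -0.16 ± 0.077 and -0.05 ± 0.077.

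All 11 measured markers of meningeal fibroblasts had negative slopes, with a median of -0.18, and 2 had an unadjusted p under 0.05. Col3a1, a fibrillar collagen, read 8.23, 7.50, 7.48 and 7.01 in vehicle, 6.76, 6.74, 7.19 and 6.78 at 200 mg/kg, and 6.57, 6.26 and 7.27 at 500 mg/kg (slope -0.44 ± 0.13). Igf2, a growth factor of the leptomeninges and choroid plexus, had a slope of -0.33 ± 0.13, and Dcn, the proteoglycan decorin, one of -0.20 ± 0.096. Vehicle replicate 1 held the highest list mean, 7.82, and without it 9 of 11 slopes were negative with a median of -0.095. How far the amount of meninges and vessels in each piece moved these genes was not tested.

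**Figure D3:**
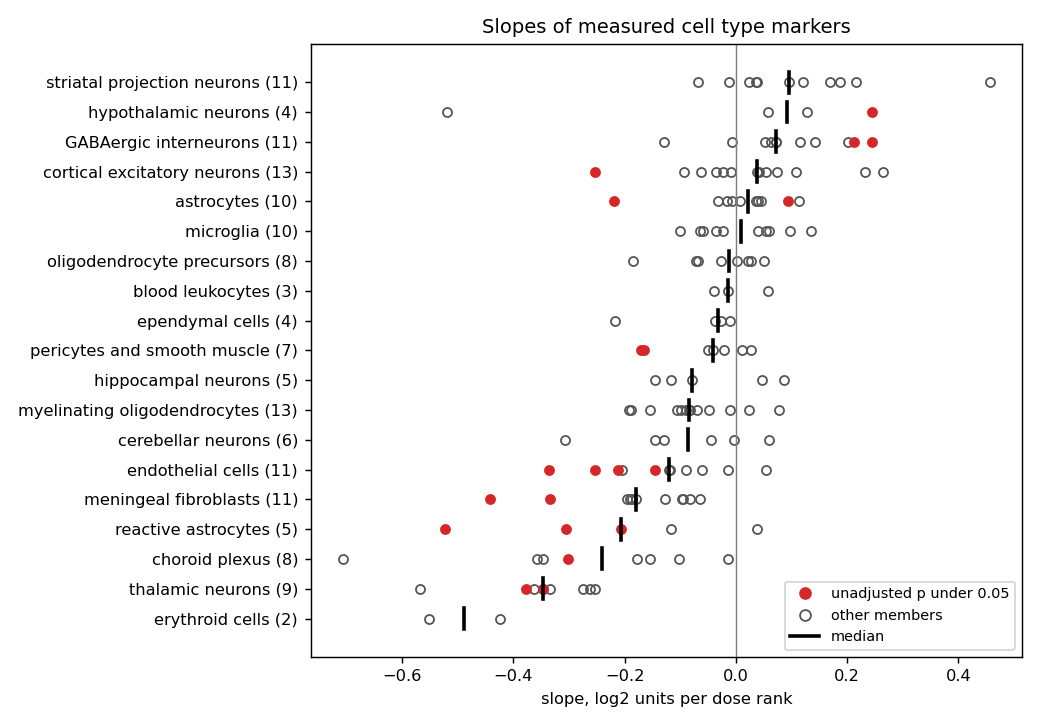
Slope over dose rank, in log2 units per step, of every measured marker gene (points) in 19 cell type lists, ordered by median (bars), with the number of measured genes in brackets. Filled points have an unadjusted p under 0.05; none passed after adjustment, and all points of the meningeal, choroid plexus, thalamic, erythroid and ependymal lists lie to the left of 0.

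Markers of neighbouring regions followed single arrays. All 9 measured thalamic markers had negative slopes, with a median of -0.35, the second lowest of the cell type lists. The list's mean level was 9.01 on vehicle replicate 2 and 6.72 to 7.25 on the other 10 arrays. Slc17a6, the vesicular glutamate transporter of thalamic neurons, read 10.18 on that array and 6.33 to 7.36 elsewhere, and Tcf7l2, a transcription factor of thalamic neurons, read 9.95 against 6.56 to 7.58. Without vehicle replicate 2 the median of the list was -0.092, the slope of Slc17a6 moved from -0.57 to -0.17 and that of Tcf7l2 from -0.28 to 0.12. Lef1 and Rora, transcription factors on the list, had the smallest p values (slopes -0.38 ± 0.12 and -0.35 ± 0.14), and without vehicle replicate 2 their slopes were -0.23 and -0.20.

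Choroid plexus markers behaved likewise. Ttr, transthyretin, which the choroid plexus secretes into cerebrospinal fluid, read 12.99 on vehicle replicate 2 and 12.49 and 12.72 on 200 mg/kg replicates 1 and 4, against 6.29 to 7.69 on the other 8 arrays. Its slope was -0.71 ± 0.87. All 8 measured markers had negative slopes with a median of -0.24, and without vehicle replicate 2 the median was -0.045. Prlr, the prolactin receptor, was the 1 marker with an unadjusted p under 0.05 (slope -0.30 ± 0.083), while Aqp1, a water channel, and Folr1, a folate receptor, had slopes of -0.15 ± 0.080 and -0.18 ± 0.14.

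The striatal list, of 11 measured genes, had 9 positive slopes and a median of 0.096. Pdyn, the dynorphin precursor of striatal neurons, read 7.0 to 8.94 in vehicle, 6.86 to 7.92 at 200 mg/kg and 8.18 to 9.26 at 500 mg/kg (slope 0.46 ± 0.22). Drd1, the D1 dopamine receptor, and Tac1, the substance P precursor, were highest on vehicle replicate 4 and 500 mg/kg replicate 2, at 9.25 and 9.07 for Drd1 and 8.38 and 8.37 for Tac1. Without 500 mg/kg replicate 2 the median of the list was -0.042, and without vehicle replicate 4 it was 0.31. Without 500 mg/kg replicate 3 it was -0.0042. Markers of myelinating oligodendrocytes had 11 of 13 negative slopes and a median of -0.085, which was 0.018 without vehicle replicate 2 and -0.0020 without vehicle replicate 4. Fa2h and Cnp, enzymes of myelin, had slopes of -0.19 ± 0.14 and -0.16 ± 0.14, while Aspa had one of 0.08 ± 0.072 and Mbp, myelin basic protein, one of -0.01 ± 0.040. The dimmer Mbp probe sets had slopes of -0.22 ± 0.115 and -0.12 ± 0.128.

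**Figure D4:**
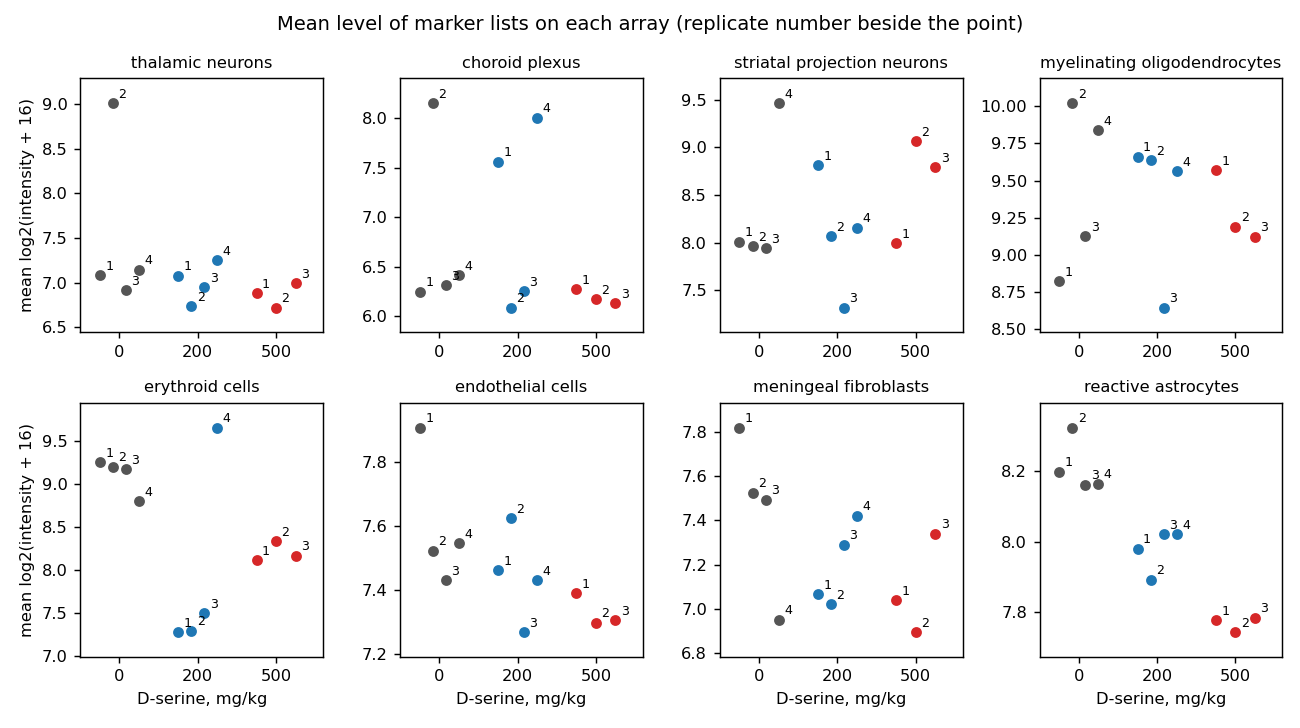
Mean level of the measured markers of 8 cell type lists on each array, as mean log2(intensity + 16) on the vertical axes, by D-serine dose in mg/kg, with replicate numbers beside the points. Vehicle replicate 2 stands at 9.01 for thalamic markers while the other 10 arrays lie at 6.72 to 7.25, 3 arrays stand high in choroid plexus markers, and the reactive astrocyte groups, whose mean includes Gfap, do not overlap.

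Cortical excitatory neurons, 13 genes measured, had 7 positive and 6 negative slopes. Slc17a7, the vesicular glutamate transporter of cortical neurons, had a slope of 0.11 ± 0.070, Fezf2, a transcription factor of deep-layer neurons, one of 0.23 ± 0.13, and Rorb, a transcription factor of layer IV, one of -0.25 ± 0.11 (unadjusted p = 0.032). Without vehicle replicate 2 the slopes of Fezf2 and Slc17a7 were 0.11 and 0.057. A dimmer Slc17a7 probe set had a slope of 0.22 ± 0.094. Rorb was also low at 200 mg/kg, at 6.17 to 6.76 against 6.82 to 7.28 in vehicle. Microglial markers had 5 slopes on each side of 0, with C1qb at 0.14 ± 0.067, C1qa at 0.10 ± 0.055 and Aif1 at -0.10 ± 0.079, and none of the 10 reached an unadjusted p under 0.05. The complement chains C1qa and C1qb and the calcium-binding protein Aif1 are standard microglial transcripts.

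Neuropeptide precursors had mostly positive slopes, none past the adjusted threshold. Of 14 measured genes 13 had a positive slope, 4 at an unadjusted p under 0.05, and the median was 0.14. Sst, somatostatin of inhibitory interneurons, read 9.48, 9.06, 9.96 and 9.91 in vehicle, 9.93, 9.95, 9.88 and 9.77 at 200 mg/kg, and 10.15, 10.13 and 9.98 at 500 mg/kg (slope 0.24 ± 0.080, adjusted p = 0.702). The 500 mg/kg arrays of Sst were the highest and the 200 mg/kg arrays lay within the vehicle range. Without vehicle replicate 2, the lowest array, the slope of Sst was 0.15. Vip, vasoactive intestinal peptide, had a slope of 0.21 ± 0.078 and Tac3, the neurokinin B precursor, one of 0.19 ± 0.075. The count was 9 of 14 positive without 500 mg/kg replicate 2 and also without 500 mg/kg replicate 3, with medians of 0.079 and 0.084. The list shares Pdyn and Tac1 with the striatal list and Sst and Vip with the interneuron list, in which 9 of 11 slopes were positive, among them that of Dlx1, a transcription factor of interneurons (0.20 ± 0.12).

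Serine and glycine handling was described by 13 measured genes of 19 listed. Srr was not analysed here and Dao lay below the filter on dim values. Of the 13, 5 had positive and 8 negative slopes, with a median of -0.033. Gldc, the decarboxylase of the glycine cleavage system, read 6.96 to 7.26 in vehicle, 7.23 to 7.36 at 200 mg/kg and 7.25 to 7.51 at 500 mg/kg (slope 0.16 ± 0.052, unadjusted p = 0.00786, adjusted p = 0.702). Slc38a5, a transporter of glutamine, serine and glycine, read 6.24 to 6.96, 6.46 to 6.66 and 6.0 to 6.41 (slope -0.22 ± 0.080, adjusted p = 0.749). The 95% intervals of the slope were -0.17 to 0.060 for Phgdh, -0.21 to 0.0029 for Shmt2, which interconverts serine and glycine in mitochondria, -0.075 to 0.28 for Slc1a4 and -0.11 to 0.15 for Slc7a10. The slope of Slc7a10, 0.02 ± 0.059, turned to -0.04 on the values as deposited.

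NMDA receptor subunits, 6 measured of 8 listed, had none at an unadjusted p under 0.05. Grin1, the obligatory subunit that binds glycine and D-serine, read 8.57, 8.87, 9.14 and 8.62 in vehicle, 8.62, 8.83, 8.79 and 8.59 at 200 mg/kg, and 8.61, 8.65 and 8.79 at 500 mg/kg. The groups overlapped throughout, and the 95% interval of its slope was -0.19 to 0.069. Grin2a and Grin2b, the glutamate-binding subunits of forebrain receptors, had intervals of -0.21 to 0.018 and -0.082 to 0.18, the slope of Grin2b being 0.05 here and -0.02 on the values as deposited. Grin2c had one of -0.22 to 0.018 and Grin3a one of -0.011 to 0.36. Dimmer Grin2a probe sets had slopes of -0.12 ± 0.068 and 0.07 ± 0.073. A dimmer Grin2b probe set had one of -0.03 ± 0.083. AMPA and kainate receptor subunits, 12 measured, had 7 positive slopes. Gria4 alone had an unadjusted p under 0.05. Gria3, another AMPA receptor subunit, had a slope of 0.11 ± 0.068 and Cacng3, an auxiliary AMPA receptor subunit, one of 0.17 ± 0.090. A second Gria3 probe set had a slope of -0.07 ± 0.054. Among GABA-A receptor subunits, which form the main inhibitory receptor, Gabra5 had a slope of 0.18 ± 0.081 (unadjusted p = 0.0472), Gabra3 one of 0.22 ± 0.13 and Gabrd one of -0.11 ± 0.061. Without vehicle replicate 2 the slope of Gabra3 was 0.068, that of Gria3 0.035 and that of Cacng3 0.094.

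Activity-regulated immediate-early genes, transcribed within minutes of synaptic activity, had 18 measured members, 12 with positive and 6 with negative slopes, and none at an unadjusted p under 0.05. Without vehicle replicate 3 the median moved from 0.060 to 0.094, with 3 genes higher at an unadjusted p under 0.05, and without vehicle replicate 4 it was -0.00052, with 9 of 18 slopes negative and 1 gene lower. Fos read 7.27, 7.26, 7.67 and 6.29 in vehicle, 7.28, 6.89, 7.64 and 6.54 at 200 mg/kg, and 6.97, 7.21 and 8.17 at 500 mg/kg. Its spread within groups was wider than any difference between them, with a 95% interval of the slope of -0.20 to 0.50. The intervals were -0.077 to 0.31 for Egr1, -0.14 to 0.49 for Egr2 and -0.34 to 0.043 for Jun, all transcription factors of this class. For Arc, a postsynaptic regulator of AMPA receptors, the interval was -0.24 to 0.22 and for Bdnf, a neurotrophin, -0.24 to 0.28. The slopes of Arc (-0.01) and Bdnf (0.02) changed sign with the scaling, to 0.02 under median centring and -0.04 on the values as deposited. With 11 arrays these intervals bound the slope and do not show that the genes were the same in all groups.

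**Figure D5:**
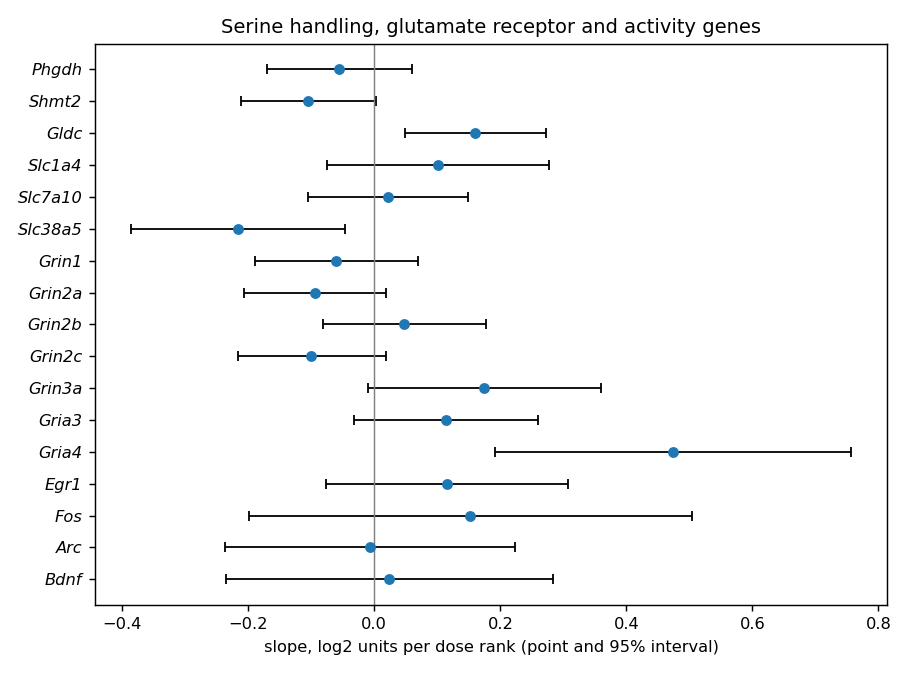
Slope over dose rank (points) and its 95% interval (lines), in log2 units per step on the horizontal axis, for 17 genes of serine handling, glutamate receptors and activity. The intervals of Gldc, Slc38a5 and Gria4 leave out 0 before adjustment, and that of Fos is the widest.

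Synaptic lists had medians near 0 that turned sign with the scaling. In the postsynaptic list, Nlgn1, a neuroligin of excitatory synapses, read 7.78 to 8.30 in vehicle, 8.39 to 8.52 at 200 mg/kg and 8.37 to 8.47 at 500 mg/kg (slope 0.15 ± 0.061). Its relative Nlgn3 had a slope of 0.16 ± 0.080, both above vehicle on every dosed array, while Shank3, a scaffold of the same synapses, had one of -0.10 ± 0.059. Among vesicle release genes Syt1, the calcium sensor of release, had a slope of 0.24 ± 0.11, and Cplx2 and Sv2b had slopes of -0.06 ± 0.058 and -0.10 ± 0.080. Sv2b was 12.89 on vehicle replicate 4 and 11.91 to 12.24 on the other 10 arrays. A second Sv2b probe set had a slope of 0.08 ± 0.089.

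Interferon-induced genes had 9 of 12 negative slopes, with a median of -0.12, and 2 at an unadjusted p under 0.05. Isg15, a ubiquitin-like protein of the interferon response, read 6.42, 6.65, 7.27 and 5.96 in vehicle, 6.05, 6.10, 5.80 and 6.39 at 200 mg/kg, and 5.79, 6.19 and 5.35 at 500 mg/kg (slope -0.40 ± 0.13, adjusted p = 0.702). Vehicle replicate 3 was the highest, the groups overlapped, and without that array 10 genes of the list passed the filter, 5 of them with negative slopes, and the median was -0.030. Ifit2 was below vehicle on every dosed array, at 5.94 to 6.32 against 5.59 to 5.93 (slope -0.21 ± 0.079), and B2m, the light chain of class I MHC, had a slope of -0.12 ± 0.055. Every dosed array lay below every vehicle array in 72 of all genes (0.704%). Of 6 measured inflammatory genes 4 had negative slopes (3 without vehicle replicate 1), led by Stat3, a transcription factor of cytokine signalling (-0.16 ± 0.051). A second Stat3 probe set had a slope of 0.05 ± 0.059. The receptor Il1r1 had one of -0.17 ± 0.091 and the adhesion molecule Vcam1 one of -0.04 ± 0.053.

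Among 14 measured glucocorticoid-responsive genes 11 had positive slopes, with a median of 0.057, and 2 an unadjusted p under 0.05. The median was 0.018 without 500 mg/kg replicate 1 and 0.019 without vehicle replicate 4, and 5 of the 14 slopes were negative without 500 mg/kg replicate 2. Sgk1, a kinase induced by corticosteroids, read 8.84, 8.87, 8.94 and 8.90 in vehicle, 9.20, 10.11, 10.11 and 9.02 at 200 mg/kg, and 9.76, 10.06 and 9.39 at 500 mg/kg. The vehicle arrays lay close together and below every dosed array, while the dosed arrays were spread from 9.02 to 10.11. Every dosed array lay above every vehicle array in 45 of all genes (0.44%). The slope was 0.44 ± 0.12 (adjusted p = 0.698), and the mean at 500 mg/kg was 1.8-fold above vehicle. Sult1a1, a sulfotransferase, had a slope of 0.45 ± 0.15, with vehicle replicate 1 at 8.56 inside the dosed range. Klf9, a transcription factor induced by the same hormones, had a slope of -0.07 ± 0.050, so the list's members did not share 1 pattern.

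Slopes of energy metabolism genes were small. Of 16 measured glycolysis genes 11 had positive slopes, with 2 at an unadjusted p under 0.05, Gpi (0.11 ± 0.038) and Aldoa (0.08 ± 0.036), and Tpi1 followed at 0.09 ± 0.042. The median of the list, 0.030, became -0.020 on the values as deposited. Oxidative phosphorylation genes had 22 of 27 positive slopes but a median of 0.0088, which also turned sign with the scaling, and without vehicle replicate 1 13 of the 27 slopes were negative. Endoplasmic reticulum stress genes had 11 of 15 and NRF2 and glutathione genes 12 of 17 negative slopes, with medians of -0.035 and -0.031 and no member at an unadjusted p under 0.05.

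The doses outside the slope place these genes beside the rest of the dose range. On all 24 arrays normalized together, Gfap averaged 10.61 in vehicle, 10.23 at 5, 9.96 at 20, 10.59 at 50, 9.88 at 200 and 9.59 at 500 mg/kg, so that the 50 mg/kg mean was level with vehicle. Vim averaged 9.12 in vehicle, 8.54, 8.72 and 8.47 at 5, 20 and 50 mg/kg, and 8.76 and 8.51 at 200 and 500 mg/kg. Hspb1 averaged 6.70 in vehicle, 5.94, 6.25 and 6.37 at the smaller doses, and 6.37 and 6.30 at 200 and 500 mg/kg. Kif1a averaged 8.11 in vehicle. At 5, 20 and 50 mg/kg it averaged 7.34, 7.36 and 7.47, against 7.53 and 7.36 at 200 and 500 mg/kg. Its mean was thus already lower at the smallest dose than at 200 mg/kg. Svop averaged 7.15 in vehicle, 8.26, 8.36 and 7.92 at 5, 20 and 50 mg/kg, and 7.56 and 7.65 at 200 and 500 mg/kg, so the smaller doses were further from vehicle than the larger ones. Ifitm3 averaged 7.45 in vehicle and 7.48, 7.53 and 7.40 at the 3 smaller doses, against 7.20 and 6.81 at 200 and 500 mg/kg. Sgk1 averaged 9.05 in vehicle, 9.34, 9.75 and 9.40 at the smaller doses, and 9.77 and 9.89 at 200 and 500 mg/kg. All groups are set against the same vehicle arrays, and no test was made of these values. The 5, 20 and 50 mg/kg groups lie outside the set chosen as alike in the beta-actin 3′ to 5′ ratio. How far that ratio moved their values was not tested, so they are not read as a dose pattern.

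The left-out 500 mg/kg array differed from the 11 in its markers of brain regions. Its mean of 6 cerebellar markers was 11.18 against 7.17 to 7.66 on the 11 arrays, and its mean of 13 cortical excitatory markers was 6.84 against 8.54 to 8.84. With it in the fit no probe set passed, and 755 instead of 1319 probe sets had an unadjusted p under 0.05 for 200 mg/kg against vehicle.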

How the data were processed

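Total RNA of 24 rat forebrain samples, 1 rat per array, was hybridised to Affymetrix rat arrays. The deposited intensity is 1 linear signal per probe set (31099, of which 57 are controls), made by the authors with GCOS per the submitters' processing notes; its version and its scaling are not stated there. Symbols came from the platform annotation, updated through RefSeq (GRCr8): 20832 probe sets had 1 symbol, 436 several and 9831 none.

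The 11 arrays were quantile normalized and taken as log2(intensity + 16). Controls and the dimmest 40% of probe sets were left out. Slopes and contrasts were fitted in limma 3.58.1 (R 4.3.3) with trend moderation and Benjamini-Hochberg adjustment per comparison; ± after a slope or difference is its standard error. Control ratios were tested by exact permutation. The steps were tested on simulated data. The groups come from the labels. No value column was without a sample and 0 pairs of arrays were identical. The number of arrays limits the precision, and no scan date, batch or dissection record was used here.

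The arrays, lists and alternatives were chosen with earlier results of these data known. Genes named are, for the slope, up to 12 in each direction (largest among those that passed, otherwise smallest p), the 5 smallest p of each other comparison where fewer than 5 passed, the 3 smallest slope p of a list described, and a panel of 19 genes. Alternatives covered scaling, pseudocount, filter, moderation, array weights, ratio covariates, dose scale, the left-out array, all 23 other arrays in 1 model and leaving out each array. Leaving out each array for the lists was added after their levels were seen.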

Additional observations from a re-analysis of the deposited data

Results flagged for a closer look

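In groups of 4 arrays, a value was looked at again where its gap to the nearest other array took up more of the group's whole range than Dixon's 95% critical value. Of 324 such checks 24 met this (7.41%), and chance flags about 1 in 20.

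On vehicle replicate 2, thalamic markers were at a mean of 9.01 (others 6.92 to 7.14), Slc17a6 at 10.18 (7.15 to 7.29), Tcf7l2 at 9.95 (6.56 to 7.03), choroid plexus markers at 8.16 (6.25 to 6.41), p53 and apoptosis genes at 7.53 (7.32 to 7.35) and cortical excitatory markers low at 8.39 (8.58 to 8.61). On vehicle replicate 4, striatal markers were at 9.46 (7.94 to 8.01), Drd1 at 9.25 (7.37 to 7.68), Sv2b at 12.89 (12.01 to 12.14) and neurotrophins and their receptors low at 8.04 (8.35 to 8.39). Lage3 was at 8.53 on vehicle replicate 1 (8.71 to 8.74), and Tpi1 at 11.40 on vehicle replicate 3 (11.23 to 11.24).

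On 200 mg/kg replicate 4, Hbb was at 12.21 (9.44 to 9.78), Alas2 at 7.09 (4.90 to 5.22), erythroid markers at 9.65 (7.28 to 7.50) and Egr1 low at 10.42 (10.91 to 11.00). On 200 mg/kg replicate 3, myelinating oligodendrocyte markers were at 8.65 (9.56 to 9.66), Fa2h at 7.50 (8.37 to 8.54), Aif1 at 6.48 (6.71 to 6.73), C1qa at 9.07 (8.79 to 8.83), Col3a1 at 7.19 (6.74 to 6.78), Nlgn1 at 8.52 (8.39 to 8.41) and immediate-early genes at a mean of 7.92 (7.67 to 7.71). Nav1 was at 8.29 on 200 mg/kg replicate 1 (8.16 to 8.18).

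The 500 mg/kg array outside the fit stood above the vehicle arrays in cerebellar markers, at a mean of 11.18 against 7.25 to 7.66, and in hippocampal markers, at 9.63 against 8.09 to 8.62. Both lists hold Neurod1, at 11.86 against 6.62 to 7.74. Of other hippocampal markers, Zbtb20 was higher, at 9.95 against 9.15 to 9.71, and Wfs1 lower, at 6.37 against 7.19 to 8.18. The hippocampal mean therefore does not show more hippocampal tissue on this array.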

How the results depend on the processing

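The count of probe sets past the adjusted threshold was 0 for each of the 5 comparisons in all 17 settings that kept the 11 arrays or added to them, except with the 23 arrays in 1 model (1 for the slope and 1 for 500 mg/kg against vehicle, both Sptbn1). Without single arrays it ranged from 0 to 8 for 200 mg/kg against vehicle and for the departure, with 8 where 200 mg/kg replicate 4 was left out, and was 0 for the slope, for 500 mg/kg against vehicle and between the doses. That array stood apart in Hbb and Alas2, which were among the 8, so this count is a description only. None of the 119 gene values followed passed in any setting (smallest adjusted p 0.0932). No paired analysis was possible because the labels give animal numbers, not replicate numbers shared by the groups.

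Unadjusted counts moved by over 1.5 times where the number of probe sets tested changed. Without a filter they were 1794 for the slope (1723 with both doses agreeing), 1726 for 500 mg/kg, 1132 between the doses and 1398 for the departure. With a 60% filter they were 707 for 500 mg/kg, 290 between the doses and 499 for the departure. With 1 probe set per gene they were 598 for the slope (588 agreeing), 628 for 200 mg/kg, 554 for 500 mg/kg, 275 between the doses and 368 for the departure. On the values as deposited they were 629 for 200 mg/kg, 286 between the doses and 247 for the departure, array weights gave 1138 between the doses, and the left-out array gave 755 for 200 mg/kg; the cause was not tested. Without single arrays the counts were 948 to 1402 for the slope (939 to 1376 agreeing), 904 to 1531 for 200 mg/kg, 752 to 1408 for 500 mg/kg, 384 to 781 between the doses, with 781 without 500 mg/kg replicate 1, and 595 to 902 for the departure. The hexokinase ratio, with a slope of -0.0097 (exact permutation p = 0.921), ranged from -0.062 to 0.070 without single arrays, that of Gapdh from -0.082 to -0.026 and that of beta-actin from -0.10 to -0.018.

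Of the 119 gene values, 93 kept their sign in every setting and 16 turned only with the left-out array, whose markers of brain regions differed. With it the slopes that turned were those of Drd1 (-0.128), Tac1 (-0.0513), Sst (-0.0666), Vip (-0.214), Dlx1 (-0.207), Tac3 (-0.108), C1qa (-0.00907), Mbp (0.0155), Grin2c (0.132), Grin2b (-0.178), Cacng3 (-0.173), Gria3 (-0.125), Egr1 (-0.180), Egr2 (-0.0377), Fos (-0.0499), Bdnf (-0.0251), Gabra5 (-0.185), Gabrd (0.116), Nlgn1 (-0.0590), Fezf2 (-0.103) and Slc17a7 (-0.0311). Otherwise the slope of Arc turned under median centring (0.018), array weights (0.045), the Gapdh ratio as covariate (0.031) and linear dose (0.027). That of Bdnf turned on the values as deposited (-0.040), with array weights (-0.000303), the Gapdh covariate (-0.023) and linear dose (-0.000935). Grin2b (-0.016) and Slc7a10 (-0.039) turned on the values as deposited, and Myh11 (0.0042) and Mbp (0.0049) with the Gapdh covariate. Without single arrays the slopes ranged from -0.089 to 0.010 for Myh11, -0.44 to 0.12 for Tcf7l2, -0.042 to 0.43 for Tac1, -0.024 to 0.018 for Mbp, -0.032 to 0.055 for Slc7a10, -0.019 to 0.26 for Fos, -0.072 to 0.090 for Arc, -0.059 to 0.10 for Bdnf and -0.14 to 0.0061 for Sv2b. The cause of these turns was not tested. The median slope of all probe sets was 0.0038, against 0.019 under median centring and -0.055 on the values as deposited.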

Other observations

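Genes with the widest spread within the 3 groups were, after Ttr (pooled SD 2.91), Cdhr1 (1.34), a photoreceptor cadherin that is also expressed by mitral and tufted cells of the olfactory bulb, Sostdc1 (1.22) and F5 (1.14). These genes were chosen for their spread after the values were seen. Cdhr1 read 8.36 on vehicle replicate 3, 8.98 on 200 mg/kg replicate 3, and 7.43 and 8.51 on 500 mg/kg replicates 2 and 3, against 5.66 to 6.55 on the other 7 arrays. Sostdc1, a secreted antagonist of bone morphogenetic proteins, was at 8.46 on vehicle replicate 2 and at 7.62 and 8.18 on 200 mg/kg replicates 1 and 4, against 5.37 to 6.16 elsewhere, the arrays on which Ttr was high. Pmch, the precursor of melanin-concentrating hormone made in the lateral hypothalamus, read 9.57 on vehicle replicate 2 and 5.85 to 6.63 on the other 10 arrays.

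S100a9, a protein of neutrophils, read 7.50 and 8.21 on 200 mg/kg replicates 1 and 2 and 5.2 to 6.47 on the other 9 arrays (slope -0.04 ± 0.29).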
